A study of Mus musculus with 8 samples.

Results

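The genes described here are enzymes that make, salvage and clear deoxynucleotides and their precursors: Tk1, Tyms, Rrm1, Rrm2, Rrm2b, Dck, Dut, Tymp and Nt5e. They were taken by name, and every array probe whose RefSeq accession belongs to them was used. Of these 9 genes, 8 had a probe, 13 probes in all, among 18883 named genes and 41174 probes on the array. No probe was matched to Rrm2, which is not analysed here. As 13506 probes could not be named in this way, further probes of these genes may be among them. The members were measured in mammary tumour cells of FVB mice with the PyMT transgene, on 8 arrays. All cells had received 50 uM camptothecin, a topoisomerase I poison that stalls replication forks, for 36 h. In the first experiment the WTA line, wild type for Mtdh, carried the LKO1 lentiviral vector with a hairpin against Snd1 (3 arrays) or the empty LKO1 vector (3 arrays), after puromycin selection. In the second, the KO2 line from Mtdh-knockout mice carried a GFP vector that returned wild-type Mtdh (1 array) or W391D Mtdh, the form the study's design calls deficient in Snd1 binding (1 array), after sorting for GFP. Each group thus comes from a single tumour cell line, the labels name a single hairpin construct, and no untreated cells were analysed here. Each sample, labelled with Cy5, was set against the same Cy3-labelled reference RNA from 11 mouse cell lines, so a value below is log2 of Cy5 over Cy3: 0 means the level of the reference, and only values of the same probe are compared.

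DNA replication needs all 4 deoxynucleoside triphosphates. Ribonucleotide reductase, built from the large subunit Rrm1 and a small subunit, either Rrm2 in cycling cells or the p53-inducible Rrm2b, makes deoxynucleotides from ribonucleotides. Thymidylate comes from deoxyuridylate by thymidylate synthase (Tyms), for which the dUTPase Dut supplies substrate while keeping uracil out of DNA, or from salvaged thymidine by the cytosolic thymidine kinase Tk1. Deoxycytidine kinase (Dck) salvages deoxycytidine and purine deoxynucleosides. Thymidine phosphorylase (Tymp) breaks thymidine down, and Nt5e (CD73) is the cell-surface enzyme that turns extracellular AMP into adenosine. Tk1, Tyms, Rrm1 and Rrm2 are textbook transcripts of the G1/S transition, driven by E2F factors.

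Because several of these genes moved together, the bases in front of their start sites are shown for 3 that fell in the knockdown, Tk1, Tyms and Rrm1, and for Tymp, which rose. Each line gives the 180 bases before the RefSeq start site (GRCm38.p6), 5′ to 3′ on the gene's strand. Capitals mark a GC box (GGGCGG) or a CCAAT box, on either strand.
Tk1, chr11:117826015-117826194, minus strand: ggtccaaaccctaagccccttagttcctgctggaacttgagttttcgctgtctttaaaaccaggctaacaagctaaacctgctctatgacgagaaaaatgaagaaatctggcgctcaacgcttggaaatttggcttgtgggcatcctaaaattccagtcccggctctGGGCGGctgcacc
Tyms, chr5:30073626-30073805, minus strand: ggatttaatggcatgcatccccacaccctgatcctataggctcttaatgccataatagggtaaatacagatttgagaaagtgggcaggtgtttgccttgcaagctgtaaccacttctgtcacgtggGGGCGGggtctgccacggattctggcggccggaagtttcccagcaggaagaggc
Rrm1, chr7:102441515-102441694, plus strand: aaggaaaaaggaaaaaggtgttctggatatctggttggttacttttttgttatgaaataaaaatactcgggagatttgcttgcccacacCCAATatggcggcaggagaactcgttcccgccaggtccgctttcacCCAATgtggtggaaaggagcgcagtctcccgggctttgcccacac
Tymp, chr15:89377037-89377216, minus strand: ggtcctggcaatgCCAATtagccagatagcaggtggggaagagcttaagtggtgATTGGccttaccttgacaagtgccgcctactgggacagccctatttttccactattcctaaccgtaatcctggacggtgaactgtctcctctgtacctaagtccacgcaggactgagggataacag
Windows from 250 bases before to 50 after the start were held for 8 of the 9 genes, Rrm2 among them but not Rrm2b. A GC box stood in 6 of these 8 (Tk1, Tyms, Rrm2, Dck, Dut and Nt5e), against 35.7% of all 32851 such windows, and a CCAAT box in 3 (Rrm1, Rrm2 and Tymp), against 37.4%. Of the 6 members that fell, 5 held a GC box, and the window of Tymp held none. The windows of Rrm2, Dck, Dut and Nt5e were 71.3%, 67.0%, 75.0% and 71.0% G or C. The median over all windows was 52.7%. Tk1 (50.7%) and Tyms, with a GC box, and Tymp, without one, lay near that median. The part of base content in the GC box counts was not tested, and neither was a link of the boxes with the fall. Counted from the start site, the GC box of Tk1 began at -13 and that of Tyms at -54, and the CCAAT boxes of Rrm1 began at -91 and -45. The E2F letters TTTCCCGC, TTTGGCGC, TTTCGCGC and TTTGCCGC were in none of the 8 windows on either strand, and in 2.26% of all windows. Only these exact letters were searched, so a window without them may still hold an E2F site of other letters. The letters TTTGAA, the CHR element of mitotic genes, were in the window of Dck alone, against 17.9% of all windows. The GC and CCAAT letters do not overlap, and these matches describe letters, not bound sites.

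The arrays had median Cy5 signals of 158 to 363 over backgrounds of 61 to 72, and Cy5 was well above background at 78% to 88.5% of spots. The 6 arrays of the first experiment lay on 2 slides, each with both groups: replicate 1 of knockdown and of vector on the first, the other 4 arrays on the second. The rescue arrays sat on separate slides, so slide and rescue group cannot be told apart. Snd1 was lower in the knockdown by 0.90 on the log2 scale (-0.90 ± 0.06 SE, adjusted p = 1.04e-05 by limma). Nothing in the labels says that the replicates were separate cultures, so the p-values measure the spread between arrays only. Knockdown and vector arrays correlated at 0.856 to 0.875 across features, and vector arrays with the rescue arrays of another line at 0.879 to 0.891. In the knockdown 10 of 15 mammary epithelial markers were lower and 3 higher (mean log2 ratio 1.26 to 1.28 against 1.55 to 1.66 in vector; 2.26 and 2.19 in the rescue arrays), and all 15 were well above background on every array. With other settings 7 to 10 of the epithelial markers were lower and 1 to 4 higher. Of 13 tested fibroblast markers 9 were higher, or 6 to 10 with other settings (mean over the list's 15 genes -2.12 to -2.06 against -2.81 to -2.77). Of 10 adipocyte markers 5 were higher and none lower, Plin4 by 1.64 ± 0.05 (list mean 0.09 to 0.16 against -0.35 to -0.29), and of 8 tested endothelial markers 2 were higher and 2 lower. Of all features 23.7% were higher and 21.1% lower. The part of these markers in the results below was not tested. In RNA from whole cultures fewer cells that make a transcript and less transcript per cell cannot be told apart.

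How the supply of deoxynucleotides differs between cells with less Snd1 and their controls under camptothecin was asked with the comparison of knockdown and vector. Of the 8 measured members 6 fell in the knockdown, 1 (Tymp) rose, and Rrm2b did not pass the test. The largest falls were those of Nt5e (2.58-fold) and Tk1 (2.47-fold), followed by Rrm1 (1.85-fold), Tyms (1.59-fold), Dck (1.39-fold) and Dut (1.31-fold), and Tymp rose 1.91-fold. The call was an adjusted p under 0.05 in a limma fit of 25674 features, where 44.8% of all features were called, 21.1% as lower and 23.7% as higher. The ranges of the 3 knockdown and the 3 vector arrays were separate for 7 of the 8 members, and for 53.2% of all features. The median difference of the members was -0.57, against 0.02 over all features. With so many features called, a call alone sets no gene apart, and the sizes below carry the description.

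**Figure D1:**
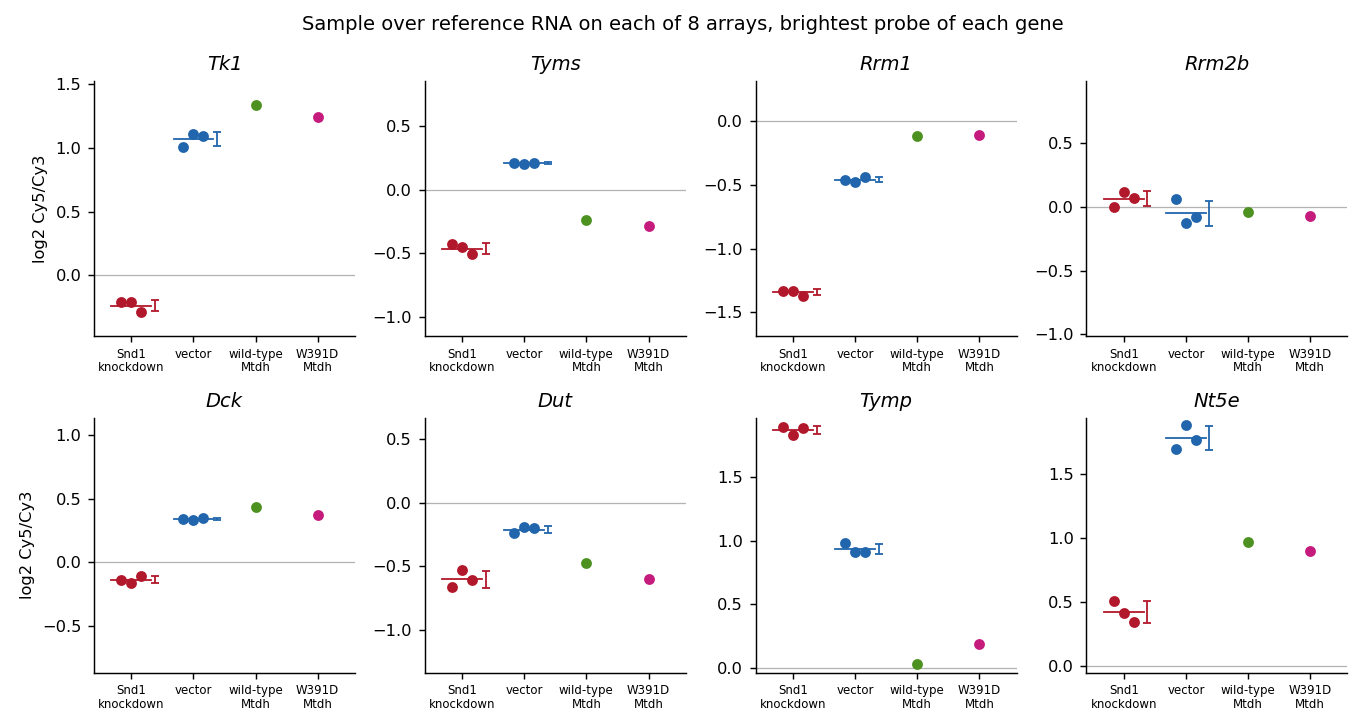
Log2 Cy5/Cy3 of the brightest probe of each gene on the 8 arrays (y axis; every panel spans the same number of log2 units), by group (x axis). Points are arrays, lines are means and bars SD of the groups of 3. The knockdown points lie below all other groups for Tk1, Tyms, Rrm1, Dck and Nt5e, and above them for Tymp. For Rrm2b they overlap the vector points.

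Tk1, the thymidine kinase that peaks in S phase, read -0.21, -0.21 and -0.29 with the Snd1 hairpin, against 1.01, 1.11 and 1.09 with the empty vector. The knockdown cells were thus below the reference RNA and the vector cells above it, with no overlap. The difference was -1.30 ± 0.05 (SE, n = 3 and 3, adjusted p = 4.88e-07 by limma), and only 0.576% of features had a lower one. Within the first slide it was -1.21, within the second -1.35. From the Cy5 channel alone Tk1 fell by 1.49, while the Cy3 signal of the common reference differed by -0.10 at the same probe.

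Rrm1, the large subunit of ribonucleotide reductase, read -1.33, -1.33 and -1.37 in the knockdown and -0.46, -0.48 and -0.44 in the vector arrays. The groups did not overlap, and each was tight (SD 0.022 and 0.019, n = 3 each). The difference of -0.88 ± 0.04 (adjusted p = 1.30e-06 by limma) was almost the same on both slides, -0.87 and -0.89. Rrm2b, the small subunit that p53 induces, has a single matched probe, which was well above background on all 8 arrays. It read 0.00, 0.12 and 0.07 in the knockdown and 0.06, -0.13 and -0.08 in the vector arrays. Vector replicate 1 lay among the knockdown values, and the difference was 0.11 ± 0.06 (95% interval -0.03 to 0.25, adjusted p = 0.186 by limma). Rrm2b stood at -0.06 within the first slide and at 0.20 within the second. It passed the test without vector replicate 1 (0.16, adjusted p = 0.0472) and within the second slide (0.20, adjusted p = 0.0132), over a range of 0.0132 to 0.865 for all alternatives. In the same arrays 23 of 30 p53 targets rose and none fell (21 and 3 with median centring), with a median of 0.79, and the cell cycle inhibitor Cdkn1a rose by 3.33 ± 0.05. The 7 listed p53 targets that were not called ran from -0.14 (Perp) to 0.14 (Polk), and the 0.11 of Rrm2b lay within that range. The upper limit of 0.25 for Rrm2b belongs to the reported fit alone, as its estimate within the second slide was already 0.20.

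Tyms, which makes thymidylate anew, read -0.43, -0.45 and -0.51 in the knockdown and 0.21, 0.20 and 0.21 in the vector arrays. The difference was -0.67 ± 0.04 (adjusted p = 6.72e-06 by limma), with -0.64 and -0.68 on the 2 slides. A second probe of Tyms gave -0.68 ± 0.04. Dut, which hydrolyses dUTP, read -0.66, -0.53 and -0.61 against -0.24, -0.19 and -0.20. This was the smallest of the 6 falls, -0.39 ± 0.05 (adjusted p = 2.95e-04 by limma), and its second probe gave -0.39 ± 0.04. The 2 probes of each of these genes therefore differed by no more than their errors.

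Dck, the kinase that also activates nucleoside drugs such as cytarabine and gemcitabine, read -0.14, -0.16 and -0.11 in the knockdown and 0.34, 0.33 and 0.35 in the vector arrays. The groups were separate and each was tight, with a difference of -0.48 ± 0.04 (adjusted p = 3.02e-05 by limma) and -0.48 on both slides. Its second probe gave -0.56 ± 0.05. The dimmest of its 3 probes read 1.17, 1.30 and 1.29 against 1.19, 1.26 and 1.19, so that knockdown and vector overlapped (0.04 ± 0.05, 95% interval -0.08 to 0.17). This probe was well above background on all 8 arrays. The fall of Dck is therefore that of 2 of its 3 probes, and the mean of the 3 fell by 0.33.

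Tymp, which splits thymidine into thymine and a sugar phosphate, was the member that rose. It read 1.89, 1.83 and 1.88 in the knockdown and 0.98, 0.91 and 0.91 in the vector arrays, all above the reference. The difference of 0.93 ± 0.04 (adjusted p = 1.56e-06 by limma) was higher than that of 97.3% of features, with 0.91 and 0.94 on the 2 slides. Tymp thus rose where Tk1, the kinase that shares its substrate thymidine, fell. Tymp is also made by macrophages, whose markers were called both ways: of 13 tested leukocyte and macrophage markers 3 were higher and 2 lower, and the list's mean log2 ratio was -1.98 to -1.95 in knockdown and -2.06 to -1.97 in vector arrays. Among macrophage genes Aif1 rose (0.48 ± 0.05; 0.26 by another probe) and Cd14 (-0.47 ± 0.05) fell. Csf1r fell as well (-0.30 ± 0.08; 0.09 and -0.19 by other probes), a call lost from the Cy5 channel alone (-0.31) and with scaling between arrays (-0.29). The pan-leukocyte gene Ptprc stood at 0.16 ± 0.10 and the macrophage genes Adgre1 and Lyz2 at 0.06 ± 0.12 and 0.02 ± 0.14.

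Nt5e, which also marks mesenchymal cells, read 0.51, 0.41 and 0.34 in the knockdown and 1.70, 1.89 and 1.77 in the vector arrays. Both groups were above the reference and clearly apart, by -1.37 ± 0.07 (adjusted p = 1.54e-06 by limma). The difference was -1.19 within the first slide and -1.46 within the second, and from the Cy5 channel alone it was -1.75. A second, much dimmer probe read 0.30, 0.21 and 0.21 against 0.27, 0.72 and 0.53. Here vector replicate 1 lay among the knockdown values, and the difference of -0.27 ± 0.10 missed the threshold (adjusted p = 0.066 over all probes, limma). That probe's Cy5 signal was 88 to 120 in the knockdown and 107.5 to 231 in the vector arrays, over local backgrounds of 60 to 70, and it was well above background on 2 of the 3 knockdown arrays. With the mean of both probes Nt5e fell by 0.82, over 1.5 times less than by the brighter probe. In the same arrays 9 of 13 fibroblast markers rose, the matrix gene Postn by 2.72 ± 0.04 and the collagen gene Col1a1 by 2.39 ± 0.07 among them. The 4 not called included Dcn (0.02 ± 0.06) and Lum (0.10 ± 0.08). With other settings the number that rose ran from 6 (Cy5 channel alone) to 10 (no background correction). A link of these markers with Nt5e was not tested. Other probes of Col1a1 gave 0.72 and 0.20, and with the mean of its probes its rise was over 1.5 times smaller.

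**Figure D2:**
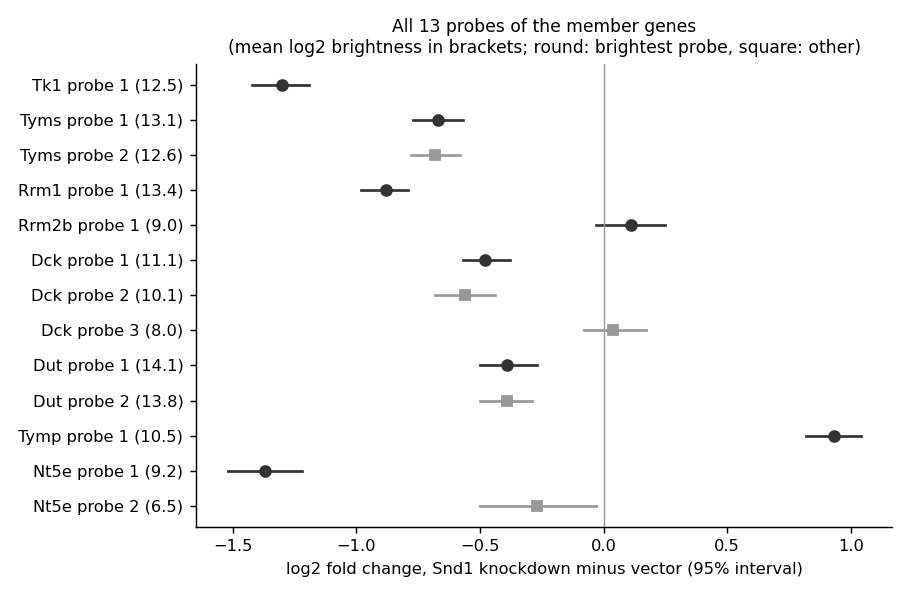
Log2 fold change of knockdown over vector (x axis) with 95% intervals for each of the 13 probes of the member genes (y axis; mean log2 brightness in brackets). The probes of Tyms and of Dut lie on each other, the dimmest probe of Dck lies at 0.04 and the dimmer probe of Nt5e at -0.27.

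Whether losing the contact between Mtdh and Snd1 goes with a change in the same genes was addressed by the rescue arrays, which have no replicates and so no test. No member differed by 1.5-fold or more between W391D and wild-type Mtdh, while 0.167% of 27019 features did, 0.0814% higher and 0.0851% lower in W391D. The 8 differences ran from -0.14 for Dut (-0.60 in W391D against -0.47 in wild type) to 0.16 for Tymp (0.19 against 0.03). Tk1 stood at 1.24 against 1.34, a difference of -0.10. Rrm1 (-0.11 against -0.12) and Rrm2b (-0.07 against -0.04) were nearly level. Tyms (-0.29 against -0.24), Dck (0.37 against 0.43) and Nt5e (0.90 against 0.97) differed by less than 0.10. The median size of such a difference over all features was 0.08, so these lie within the ordinary distance between the 2 arrays; 81.1% of features had a smaller one than Tymp and 73.5% a smaller one than Dut. Mtdh itself read 0.42 on the wild-type and -0.10 on the W391D array. The level of Mtdh transcript and the mutation therefore cannot be told apart in this comparison. Signs were not stable to the scaling: from the Cy5 channel alone Tk1 stood at 0.11, Dut at 0.06, Rrm2b at 0.25 and Nt5e at 0.13, Tymp at 0.00 and Rrm1 at -0.35. At the probe of Rrm1 the Cy3 signal of the reference differed by -0.32 between these 2 arrays, close to the -0.35 of Cy5.

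**Figure D3:**
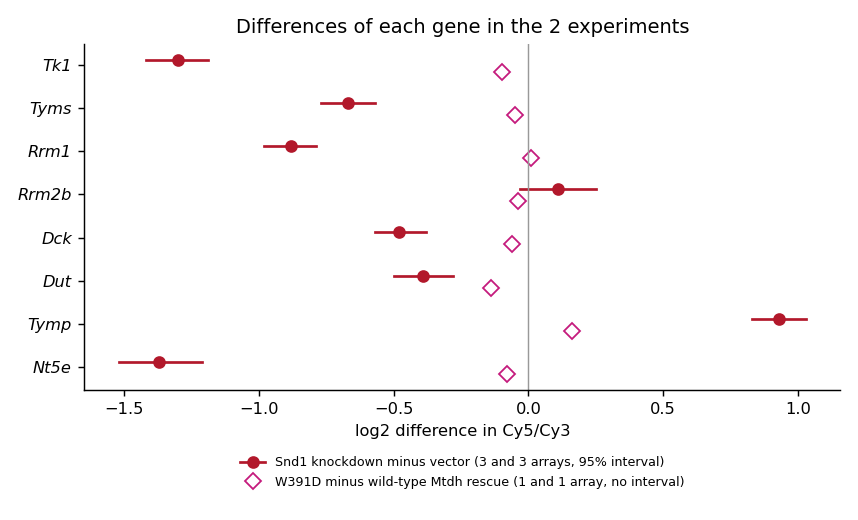
Log2 difference (x axis) of each member (y axis) in knockdown over vector, filled with 95% intervals, and in W391D over wild-type Mtdh rescue, open and without replicates. The open symbols lie between -0.14 and 0.16, while 7 of the 8 filled ones lie at least 0.39 from 0.

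Set over all 4 groups, the order of levels was not the same for each gene. Tk1, Rrm1 and Dck were lowest in the knockdown, then vector, and highest in the rescue arrays. For Dck the vector arrays (0.33 to 0.35) and W391D (0.37) were close neighbours, without replicates on the rescue side to judge the step. Tyms, Dut and Nt5e were highest in the vector arrays. For Tyms the rescue arrays (-0.24 and -0.29) and for Nt5e (0.97 and 0.90) lay between knockdown and vector, and for Dut the W391D value of -0.60 lay inside the knockdown range. Tymp was lowest in the rescue arrays (0.03 and 0.19), higher in vector and highest in knockdown. Rrm2b kept within -0.13 to 0.12 on all 8 arrays. Its knockdown values (0.00, 0.12 and 0.07) lay above both rescue values (-0.04 and -0.07), and the vector values overlapped both. The mean of the 2 rescue arrays differed from the vector mean by 0.22 for Tk1, 0.34 for Rrm1, 0.06 for Dck and -0.01 for Rrm2b, and by -0.47 for Tyms, -0.33 for Dut, -0.82 for Tymp and -0.85 for Nt5e. These compare different cell lines on different slides, which cannot be told apart from the genotype.

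Over the 8 arrays, which fall into these groups and share the reference RNA, the members formed sets. As the arrays of a group lie close together, r mostly follows the group levels given above, and shared regulation was not tested. Tk1, Rrm1 and Dck followed each other at Pearson r of 0.98 to 0.99, and Tyms, Dut and Nt5e at 0.94 to 0.99. Between Rrm1 and Dut r was 0.47, and Tymp ran against Tk1, Rrm1 and Dck at -0.94, -0.97 and -0.92. Among 17215 other named genes, those with the highest r were Kif11 (0.9991), a mitotic kinesin, BC052040 and Ptprf for Tk1; Tjp3 (0.9993), Pdgfb and Qser1 for Rrm1; and Birc5 (0.9985), the mitotic survivin gene, Depdc1b and Ptgr1 for Dck. For Tyms they were Dhcr7 (0.9979), of cholesterol synthesis, Mrpl35 and Dnajc22, and for Nt5e they were Brcc3 (0.9982), Dhcr7 and the interferon factor Irf7. Dut was followed by Rnf168 (0.9933), Dnajc19 and Hspa14, and Tymp by Atp6v1d (0.9987), 3110039M20Rik and Arrdc4. For Rrm2b the highest r was lower, 0.974, with Vmn1r225, then Olfr1006 and Adra2b.

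The members sit within a wider network, and its other genes were called both ways. The counts here and in the paragraphs that follow stand beside 21.1% of all features called lower and 23.7% higher. Of 24 further genes of deoxynucleotide supply 11 fell and 4 rose, with a median of -0.07. Cmpk2, a mitochondrial nucleotide kinase that interferon induces, fell most (-1.96 ± 0.07; -1.10 by another probe), and Nme4, a mitochondrial nucleoside diphosphate kinase, fell by 1.05 ± 0.04 on the log2 scale, or by 0.55 by another probe. Samhd1, which destroys deoxynucleoside triphosphates, fell as well (-0.74 ± 0.05), as did thymidylate kinase, Dtymk (-0.78 ± 0.06), though a second probe of Dtymk gave 0.08 ± 0.04. The nucleotide kinases Cmpk1 (0.38 ± 0.06), Nme1 (0.39 ± 0.08) and Guk1 (0.14 ± 0.04) were among those that rose. The calls of Nme1 and Guk1 were lost with median centring in place of loess (0.30 and 0.00). With that centring 14 genes of the list fell and 1 rose.

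In pyrimidine synthesis 4 of 10 genes fell and 2 rose (median -0.04). Both CTP synthetases fell, Ctps by 0.83 ± 0.05 and Ctps2 by 0.82 ± 0.05 on the log2 scale, and so did the dehydrogenase Dhodh (-0.45 ± 0.06). Prps1 (-0.13 ± 0.04; 0.09 by another probe) lost its call under many alternatives, among them the mean of both probes (-0.02). The uridine-cytidine kinase Uck1 rose (0.91 ± 0.05; 0.60 by another probe), as did its relative Uckl1 (0.30 ± 0.05), whose call was lost with median centring (0.18). In purine synthesis 5 of 11 fell and 2 rose (median -0.20). Paics (-0.66 ± 0.05), Ppat, the first committed enzyme (-0.54 ± 0.05; -0.03 by another probe), Gart (-0.40 ± 0.06) and Atic (-0.28 ± 0.06) fell. Impdh1, at the branch to guanine nucleotides, rose 2.01-fold (1.01 ± 0.04), and Adssl1 (0.21 ± 0.07) lost its call under many alternatives, among them median centring (0.09).

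Of 17 tested breakdown and salvage genes 6 were higher and 3 lower, with a median of 0.12, while 23.7% of all features were higher and 21.1% lower. Adenosine deaminase, Ada (0.93 ± 0.07), cytidine deaminase, Cda (0.71 ± 0.04), purine nucleoside phosphorylase, Pnp (0.53 ± 0.05), and xanthine dehydrogenase, Xdh (0.41 ± 0.05), rose. The nucleotidases Nt5c3 (-0.76 ± 0.04) and Nt5c3b (-0.34 ± 0.05) and adenosine kinase, Adk (-0.37 ± 0.05), fell; the call of Adk was lost with scaling between arrays (-0.34). With median centring 4 genes of this list were higher and 5 lower. Around the adenosine that Nt5e makes, 6 of 19 genes rose and 2 fell (median 0.00). The share called in this list was near the 44.8% of all features. The adenosine receptors Adora2b (0.84 ± 0.06) and Adora1 (0.50 ± 0.06; 0.02 by another probe), the ATP-hydrolysing Entpd2 (0.46 ± 0.06) and the nucleoside transporter Slc29a3 (0.76 ± 0.10; 0.23 by another probe) rose. A further probe of Adora1 gave 0.47 ± 0.09. Entpd3 (-0.79 ± 0.05) and Enpp1 (-0.26 ± 0.05) fell, and the call of Enpp1 was lost with scaling between arrays (-0.24). With the scanner software's own log ratios 6 genes of this list were higher and 6 lower. Entpd1 (CD39), which makes the AMP that Nt5e uses, stood at -0.01 ± 0.14.

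S-phase transcripts, given because Tk1, Tyms and Rrm1 are made at the same time, were lower for 20 of 28 genes and higher for 4 (median -0.50, against -0.57 for the members and 0.02 for all features). Their mean log2 ratio was -0.38 to -0.36 in knockdown and 0.03 to 0.07 in vector arrays, and 0.08 on both rescue arrays. The primase Prim1 (-1.18 ± 0.05), the clamp loader subunits Rfc5 (-1.05 ± 0.05) and Rfc4 (-0.90 ± 0.04) and the helicase subunit Mcm6 (-0.89 ± 0.04) fell. The cyclins Ccne1 (0.59 ± 0.06) and Ccne2 (0.38 ± 0.09), the histone mRNA binder Slbp (0.37 ± 0.05) and the sliding clamp Pcna (0.23 ± 0.05), also a p53 target, rose. The call of Pcna was lost from the Cy5 channel alone (0.14) and with median centring (0.20).

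**Figure D4:**
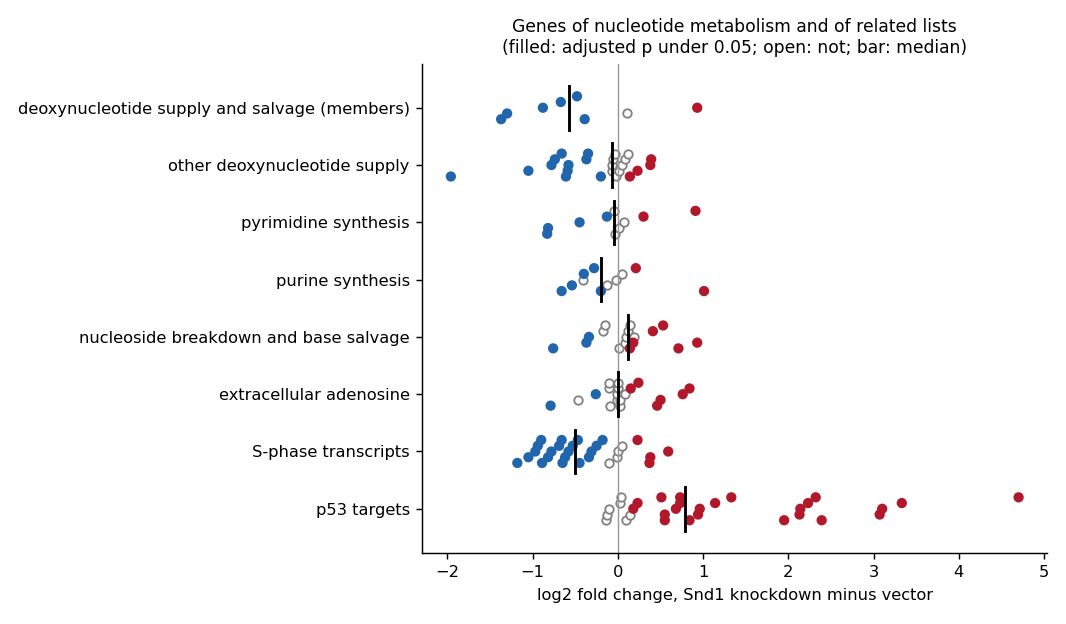
Log2 fold change of knockdown over vector (x axis) for each tested gene of 8 lists (y axis); filled points passed the test, open ones did not, and bars are medians. The members' median of -0.57 lies near that of the S-phase transcripts at -0.50, while those of the other nucleotide lists lie between -0.20 and 0.12.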

How the data were processed

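The members and the gene lists were chosen with earlier results of these data known, and an earlier analysis of the same files guided the processing. Deposited spot intensities are unnormalized median pixel values from Agilent Feature Extraction 11.0.1.1, per the file headers; the submitters' processing notes name 9.5.3.1. The deposited log10 ratios (Cy5 over Cy3) are background-subtracted and dye-normalized by the same software, per the file headers. The deposited value table holds log2 ratios that matched each array's own log10 ratios (r at least 0.9878) and was not centred (column medians 0.026 to 0.146).

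Intensities were background-corrected (normexp, offset 50) and normalized by loess within arrays with limma 3.58.1 in R 4.3.3. Control spots and flagged outliers (77 to 142 per array) were left out, and no spot was saturated. Dyes were not swapped. Probes were named through unversioned RefSeq accessions of GRCm38.p6, while the headers name mm9 as the build, so the only coordinates given are those of RefSeq's promoter windows. A gene's probe of highest mean brightness represents it. Features were kept where Cy5 was well above background on 3 or more of the 6 arrays, and tested with lmFit and eBayes and Benjamini-Hochberg adjustment, without a block; values of second probes come from the same fit over all probes. The code was tested on simulated data.

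Named beside the members are, of each list other than the cell type markers, the called genes with the 4 smallest p in each direction (p53 targets by count, with Cdkn1a alone), Snd1 and Mtdh, the 3 genes of highest r with each member, and those markers that describe a marker list. A gene that this rule names is not reported here. Promoter sequences are RefSeq's. Same-numbered knockdown and vector arrays deviated together (r = 0.597, 0.325 and 0.338), and the replicate number was taken to pair them in an alternative. Replicates 2 and 3 of both groups share a slide, so the slides do not tell these numbers apart. Whether the numbers pair the arrays was not tested. Other alternatives were other background, scaling, filter, probe and variance settings, the slide as a block, and each array left out.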

Additional observations from a re-analysis of the deposited data

How the results depend on the processing

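Under 20 alternatives 6 members were called lower in the knockdown, and Tymp kept its sign and its call in all 19 that refitted it. Differences ranged from -1.50 to -1.28 for Tk1, -0.99 to -0.86 for Rrm1, -0.78 to -0.64 for Tyms, -0.66 to -0.33 for Dck, -0.45 to -0.34 for Dut, -1.75 to -0.82 for Nt5e and 0.86 to 1.04 for Tymp. Rrm2b ranged from 0.02 to 0.20. Within the slide of 4 arrays it reached 0.20 and 2 members were called higher. With 1 array left out it ranged from 0.07 to 0.16, and leaving out vector replicate 1 gave 0.16 and 2 members called higher. The Cy5 channel alone called 3605 features higher, against 6074. With the replicate block, 6990 features were higher and 5914 lower, and Tk1 stood at -1.30; the block changed no member's call. The slide as a block changed none either. In the rescue arrays no member reached 1.5-fold under any setting; the values ran from -0.35 (Rrm1) to 0.25 (Rrm2b), both from Cy5 alone. Signal over background limits the second probe of Nt5e most, and the number of arrays limits all precision.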

Other observations

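In the rescue arrays, no other listed gene of nucleotide metabolism reached 1.5-fold between W391D and wild-type Mtdh, though some lay farther apart than the members, which ran from -0.14 to 0.16. The list medians were -0.02 for further genes of deoxynucleotide supply, 0.04 for pyrimidine synthesis, 0.06 for purine synthesis, -0.03 for breakdown and salvage, -0.04 for extracellular adenosine and -0.01 for S-phase transcripts. The farthest values, picked after they were seen, were 0.36 for Pfas and 0.30 for Adsl, both of purine synthesis, 0.30 for the pyrimidine enzyme Cad, 0.33 for the phosphatase Alpl, 0.28 for the uridine phosphorylase Upp1 and -0.26 for Cmpk2. These are single arrays without a test.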
